A study of Homo sapiens with 4 samples.

Results

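The 44 human genes for collagen chains, named COL1A1 to COL28A1, were examined for GATA3 binding among 20033 protein-coding genes. The genes were taken as a family by their names, with earlier results of these data known. GATA3 was mapped by chromatin immunoprecipitation and sequencing (ChIP-seq) in H1, an established human embryonic stem cell (hESC) line, kept on Matrigel in mTeSR1 medium. All samples carried the same treatment, BMP4 at 50 ng/ml for 6 h. They were 2 ChIP replicates made with an antibody to GATA3 and 2 samples of input chromatin from cells treated alike. The replicates were 2 biological replicates of 1 cell line, and a GATA3 ChIP from untreated cells was not analysed here, so no value below is a change caused by BMP4.

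Collagens are the main structural proteins of the extracellular matrix. Their chains carry long runs of a glycine repeat and wind into a triple helix, and the helices assemble into fibrils, into the flat networks of basement membranes, or into filaments between these. GATA3 is a zinc finger transcription factor that binds the letters GATA in DNA, and it acts in trophectoderm and T cell development. Basement membranes, in which type IV collagen meets laminin, underlie the epithelia of the early embryo.

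Each ChIP replicate was represented by a list of called peaks, 1 base position per peak, with no height, width or score. On the 24 chromosomes replicate 1 had 18456 positions and replicate 2 had 12782. Positions that lay no more than 100 bp apart between the replicates were joined into a shared region, which gave 9145 regions over the genome. A collagen gene was counted as having a region when the region lay in the gene body or within 50 kb of the 5′ end of the gene. Under this rule 19 of the 44 genes had a shared region, and together they held 27 distinct regions. When regions that carry the symbol of a collagen gene in the deposited lists were added, COL1A2 and COL11A1 joined and the count was 21 of 44.

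The DNA under the regions is shown first, because the letters can be compared with the binding sequence of GATA3. Each sequence is the 200 bases around the centre of a shared region on the plus strand of hg38. GATA sequences, meaning GATAA or GATAG preceded by A or T on either strand, are in capitals, and on the opposite strand they read TTATC or CTATC followed by A or T. The set holds 4 of the 6 regions within 10 kb of a collagen 5′ end. The regions nearest to COL12A1 and COL2A1 carried no GATA sequence, and the others shown carried 1 each. Of those not shown, the region of COL4A3 and COL4A4 carried 3 and that of COL6A1 carried 2.

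COL12A1 codes for the chain of type XII collagen, which lies on the surface of collagen fibrils. Its promoter region, chr6:75206404-75206603, lay 0.237 kb upstream of the 5′ end, and a further region, chr6:75211275-75211474, lay 5.11 kb upstream.
COL12A1 promoter region: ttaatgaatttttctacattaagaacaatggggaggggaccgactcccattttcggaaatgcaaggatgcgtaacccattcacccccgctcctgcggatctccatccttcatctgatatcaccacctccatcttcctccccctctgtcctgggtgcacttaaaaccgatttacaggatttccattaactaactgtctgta
COL12A1 upstream region: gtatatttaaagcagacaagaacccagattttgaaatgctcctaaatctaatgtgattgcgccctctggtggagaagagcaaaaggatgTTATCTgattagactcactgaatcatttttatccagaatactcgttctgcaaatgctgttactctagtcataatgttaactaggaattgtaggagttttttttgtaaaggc
COL6A3 codes for a chain of type VI collagen, which forms beaded filaments around cells. Its region, chr2:237421691-237421890, lay 7.46 kb upstream of the 5′ end.
COL6A3 upstream region: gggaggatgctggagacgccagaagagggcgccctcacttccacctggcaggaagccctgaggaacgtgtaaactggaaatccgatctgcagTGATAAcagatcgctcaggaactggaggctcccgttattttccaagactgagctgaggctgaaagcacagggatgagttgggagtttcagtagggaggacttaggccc
COL2A1 codes for the fibrillar collagen of cartilage and of the embryonic notochord. Its nearest region, chr12:47998614-47998813, lay in intron 2, and 5.84 kb from the 5′ end.
COL2A1 intron region: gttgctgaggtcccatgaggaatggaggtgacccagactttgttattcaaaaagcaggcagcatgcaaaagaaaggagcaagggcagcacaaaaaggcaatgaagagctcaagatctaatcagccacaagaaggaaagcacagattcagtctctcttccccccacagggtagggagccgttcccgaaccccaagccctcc

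The share of collagen genes with a shared region was 43.2% (95% Wilson interval 29.7 to 57.8, counting error only). The interval takes the genes as independent, but COL4A1 and COL4A2 had the same region, as did COL4A3 and COL4A4. With genes of the same regions counted once, the 19 genes were 17 loci. Over all protein-coding genes 32.3% had a shared region, and 33% when symbols in the lists were added. Collagen genes are long, with a median of 145 kb against 27.5 kb over protein-coding genes, and a long gene offers a wide window. Other protein-coding genes in the same of 10 classes of gene length, averaged over the 44 collagen genes, had a region in 45.5% of cases. At that share 20.04 collagen genes would have had a region, and 19 did, a ratio of 0.948. By position or symbol 21 did, against 20.4, so the collagen genes then lay above the comparison. By the symbols alone 13 did, against 7.59, again above it. The authors' symbols do not all match the gene annotation used here, and a gene with an unmatched symbol cannot be counted by symbol. How far this lowers the comparison number was not tested. Counting regions in place of genes, there were 29 pairs of a gene and a region against 34.6 at the mean of genes of the same length, a ratio of 0.838. Per megabase of window the collagen genes held 3.06 shared regions (exact Poisson interval 2.02 to 4.45), against 3.41 in the windows of all protein-coding genes and 2.96 over the chromosomes. Both comparison values lay within the interval of the collagen genes.

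In each replicate alone the count was also below the number at genes of like length. In replicate 1, 25 collagen genes held a position, against 50.1% of protein-coding genes and 28.1 genes at the share for like length. In replicate 2, 21 held a position, against 40.1% and 23.8 genes. Positions at collagen genes were often found again in the other replicate. Replicate 1 had 39 distinct positions there and 27 were shared, 69.2% (interval 53.6 to 81.4), against 49.6% over the genome. Replicate 2 had 33 and 27 were shared, 81.8% (65.6 to 91.4), against 71.5%. The interval of replicate 1 lay above the value over the genome and that of replicate 2 held it, and neither difference was tested. Within the 27 regions the replicate positions were a median of 15 bp apart, from 0 to 81 bp, against 23 bp over all shared regions.

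**Figure D1:**
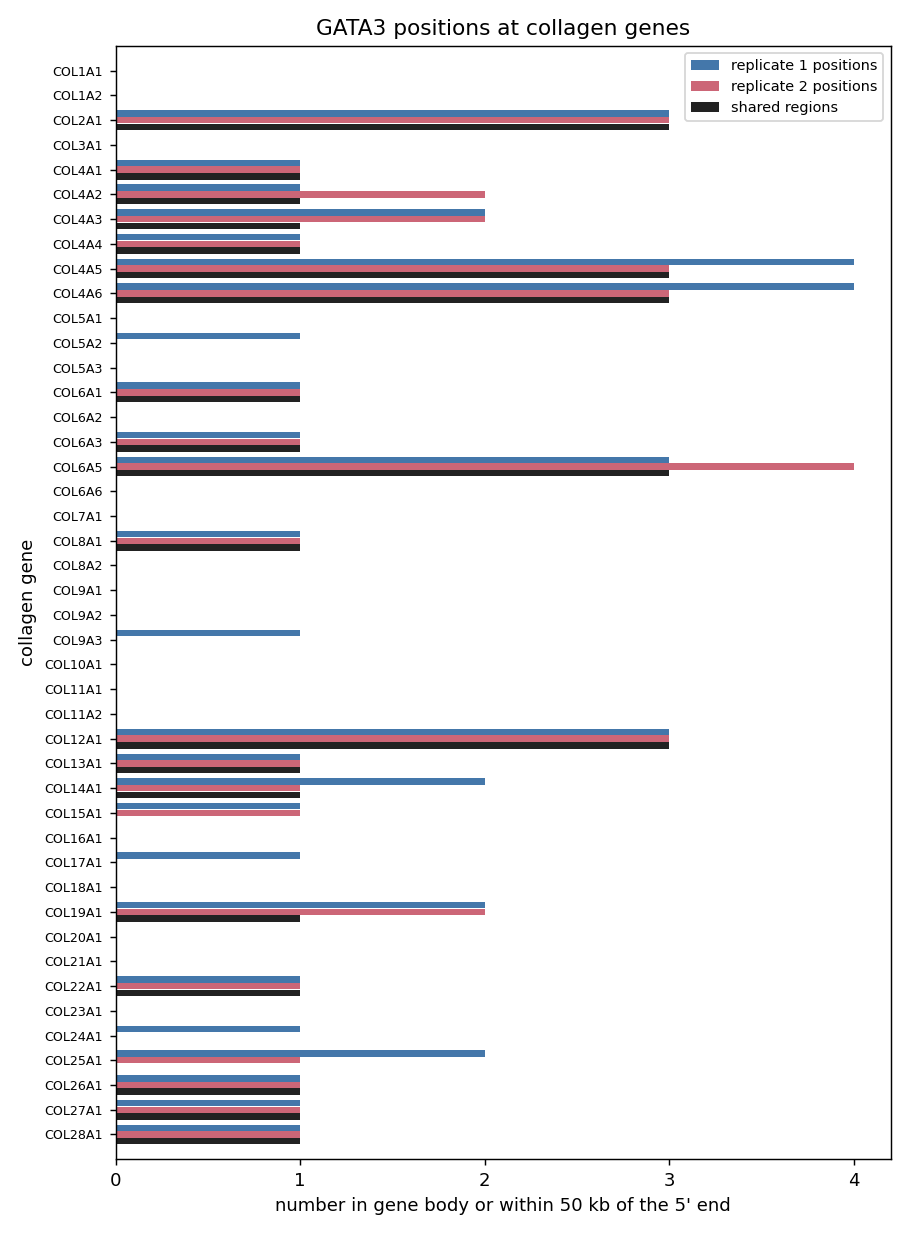
Number of GATA3 positions in replicate 1, in replicate 2 and in shared regions (x axis) for each of the 44 collagen genes (y axis), counted in the gene body or within 50 kb of its 5′ end. Of the genes, 5 held 3 shared regions, 14 held 1, and 25 held 0.

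The 44 genes fell into 4 groups by their positions. In 19 the replicates shared a region, and COL2A1, COL4A5, COL4A6, COL6A5 and COL12A1 held 3 each. In 2, COL15A1 and COL25A1, both replicates had a position but farther apart than 100 bp. In 4, COL5A2, COL9A3, COL17A1 and COL24A1, replicate 1 alone had a position, and in 0 did replicate 2 alone. The remaining 19 had no position in either list. These were COL1A1, COL1A2, COL3A1, COL5A1, COL5A3, COL6A2, COL6A6, COL7A1, COL8A2, COL9A1, COL9A2, COL10A1, COL11A1, COL11A2, COL16A1, COL18A1, COL20A1, COL21A1 and COL23A1. Of these, COL1A2 and COL11A1 had a region by symbol alone, at 55.2 kb and 53.7 kb upstream, just outside the window. The nearest regions just inside the window were those 46.5 kb upstream of COL6A5 and 47.6 kb upstream of COL22A1. Since the lists hold called peaks only, a gene without a position had no called peak, which does not exclude weaker binding.

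More of the long collagen genes had a region. Among the 18 genes in the 8 shorter length classes, up to 90.7 kb, 3 had a shared region, 16.7% (5.84 to 39.2), beside 27.01% of other genes of those lengths. In class 9, 6 of 9 did, 66.7% (35.4 to 87.9), beside 41.9%. In class 10, the longest, 10 of 17 did, 58.8% (36.0 to 78.4), beside 67.1%. Each value for other genes lay within the collagen interval. Pairs of a gene and a region went in opposite directions in the long classes. Class 9 held 10 against 5.16 at the mean of genes of that length, and class 10 held 14 against 23.4. Of the 10 in class 9, 3 were at COL6A5, and all of these belong to a group of regions alike in sequence, described later. The region in COL4A5 intron 1, in class 10, belongs to the same group. The long genes COL5A1, COL11A1, COL21A1 and COL23A1 had no position in their windows, and they span 203 kb, 232 kb, 338 kb and 353 kb.

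**Figure D2:**
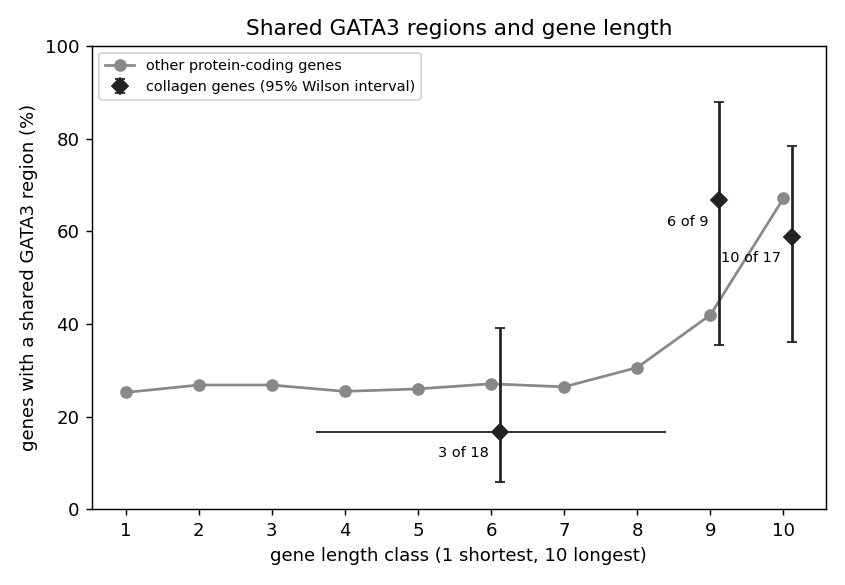
Share of genes with a shared GATA3 region (y axis, %) in 10 classes of gene length from short to long (x axis), for other protein-coding genes (grey line) and for collagen genes (black diamonds with 95% Wilson intervals). The first diamond pools the 8 shorter classes, its horizontal bar spans classes 4 to 8 that hold its genes, and the intervals of 3 of 18, 6 of 9 and 10 of 17 collagen genes all cross the grey values.

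By the kind of structure the chains build, all basement membrane genes and 2 fibrillar genes had a region by position. All 6 type IV chain genes, which build the basement membrane network, had a shared region, where genes of their length would give 3.52. The count was 4 of 6 in gene bodies only (3.06 at like length), 4 within 50 kb of the 5′ end only (1.84) and 2 by symbol alone (1.32, COL4A3 and COL4A5). Of the 11 fibrillar genes, COL2A1 and COL27A1 had one, where genes of their length would give 4.70. By position or symbol COL1A2 and COL11A1 joined them, 4 against 4.79. By symbol alone 3 had one against 1.76, above the comparison, where the whole collagen family gave 13 against 7.59. The limit of unmatched symbols applies here too. Under each other way of counting tried, the fibrillar class lay below the comparison. The genes of type I, III, V and XI collagen, the fibrils of skin, bone, vessels and cartilage, had none by position, and nor had COL24A1. This depended on the window. With 100 kb around the 5′ end COL1A2 and COL11A1 gained a region, and the class gave 4 against 6.05. In the 5 beaded filament genes the count was 3 against 1.67, with COL6A1, COL6A3 and COL6A5. It was 1 against 0.9504 in gene bodies only and 1 against 0.662 by symbol alone, both COL6A5. Without a group of regions alike in sequence, described later, it was 1 against 1.62, COL6A3 alone, and so below the comparison. In the 10 FACIT genes, for collagens that decorate fibrils, it was 4 against 4.45, with COL12A1, COL14A1, COL19A1 and COL22A1. The 4 transmembrane genes gave COL13A1, 1 against 2.28, and the 3 hexagonal network genes gave COL8A1, 1 against 0.961. COL26A1 and COL28A1, outside these classes, both had a region, 2 against 1.34. The 2 multiplexin genes, COL15A1 and COL18A1, had none against 0.839, and the anchoring fibril gene COL7A1 had none against 0.271. The classes are small and differences between them were not tested. The 6 type IV genes are not 6 independent loci, because they lie in 3 pairs of neighbours that share windows and held 8 distinct regions.

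**Figure D3:**
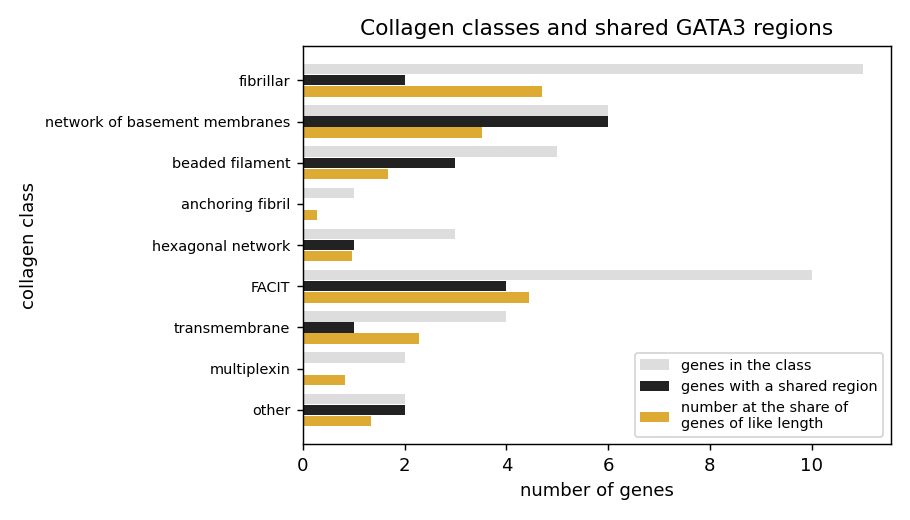
Number of genes (x axis) in each collagen class (y axis), with all genes of the class in grey, those with a shared GATA3 region in black, and the number given by protein-coding genes of like length in yellow. The black bar fills the grey one for the basement membrane class, 6 of 6, and is 2 of 11 for the fibrillar class.

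The type IV genes were examined pair by pair. Each pair is transcribed outward from adjacent starts. COL4A1 and COL4A2, the chains of nearly all basement membranes, had 1 region, with positions 110266193 in replicate 1 and 110266169 in replicate 2 on chromosome 13. It lay in intron 1 of COL4A1, 41.0 kb inside that gene and 39.6 kb upstream of COL4A2, and a further position of replicate 2 alone lay 74.4 kb inside COL4A2. COL4A3 and COL4A4, chains of the basement membrane of the kidney glomerulus, had 1 region with replicate positions 44 bp apart, 1.60 kb inside COL4A3 in its intron 1 and 1.77 kb upstream of COL4A4. Both replicates also had a position near the far end of COL4A3, 146 kb and 145 kb from its 5′ end, which lay 114 bp apart and so just missed the distance for sharing.

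The X-linked pair held 6 of the 8 type IV regions, all deep in the gene bodies. COL4A5, the chain gene altered in X-linked Alport syndrome, had regions 73.0 kb from its 5′ end in intron 1, 102 kb in intron 2 and 237 kb in intron 43. The replicate positions of these 3 regions were 4, 28 and 1 bp apart. COL4A6 had regions 62.3 kb and 72.7 kb from its 5′ end, both in intron 2, and 240 kb in intron 13, with replicate positions 39, 25 and 22 bp apart. Replicate 1 alone added a position in each gene, at 238 kb in COL4A5 and 64.4 kb in COL4A6. The 2 genes are 258 kb and 284 kb long.

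COL12A1 had the shared region nearest to a collagen 5′ end. Its promoter region had positions 75206529 in replicate 1 and 75206478 in replicate 2, 51 bp apart, and the remaining region lay 35.9 kb inside the gene in intron 13. All 3 regions had COL12A1 as the nearest protein-coding start. COL12A1 was the only member with a shared region within 1 kb of the 5′ end of the gene, and 2.42% of protein-coding genes had one. COL14A1, the gene for type XIV collagen, also a fibril-surface protein, is a case where the choice of start matters. Its region had the same position, 120125139, in both replicates. It lay 65.4 kb from the outermost 5′ end, but 0.037 kb from the start of the canonical transcript, inside its exon 1. With canonical starts COL12A1 and COL14A1 were the 2 members with a region within 1 kb, and 2.48% of protein-coding genes had one.

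COL25A1, a brain transmembrane collagen found in amyloid plaques, had a position of each replicate close to its start. They lay 0.386 kb and 0.515 kb upstream, 129 bp apart, and were not joined at 100 bp. At 250 bp this pair and the pair of COL15A1, 58.7 kb and 58.9 kb inside that gene and 142.5 bp apart, became shared, and the count rose to 21 collagen genes beside 21.1 at the share for like length. COL5A2 and COL24A1 had a position near the start in replicate 1 alone, 1.36 kb upstream and 1.96 kb inside. COL9A3 had one 6.78 kb inside and COL17A1 one 20.5 kb upstream.

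COL2A1 was the short gene with the most regions, 3 around a gene of 31.6 kb. The region in intron 2 had positions 47998721 and 47998706. A second lay 17.4 kb upstream with positions 48021911 and 48021905. The third region, 40.2 kb from the 5′ end and past the end of the gene, lay in TMEM106C, 0.799 kb from the start of that gene, and the authors named it for TMEM106C. Of the 27 regions, 23 had a collagen gene as the nearest protein-coding start, and 15 carried a collagen name from the authors.

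The type VI genes showed regions outside and inside the genes. COL6A1 had a region 5.77 kb upstream with replicate positions 10 bp apart, and COL6A3 had positions 237421809 and 237421771, also upstream. COL6A5 had regions 46.5 kb upstream, 62.9 kb inside in intron 17 and 107 kb inside in intron 36, and the last joined positions 81 bp apart, the widest of all 27. COL6A2, beside COL6A1 on chromosome 21, had no position, and its nearest shared region was 82.1 kb from its 5′ end. The remaining genes had 1 region each. COL8A1 had it in intron 1 at 50.9 kb, COL13A1 in intron 2 at 51.2 kb, COL19A1 in intron 4 at 47.6 kb, COL26A1 in intron 1 at 39.4 kb, COL27A1 in intron 19 at 83.7 kb and COL28A1 in intron 15 at 73.8 kb.

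**Figure D4:**
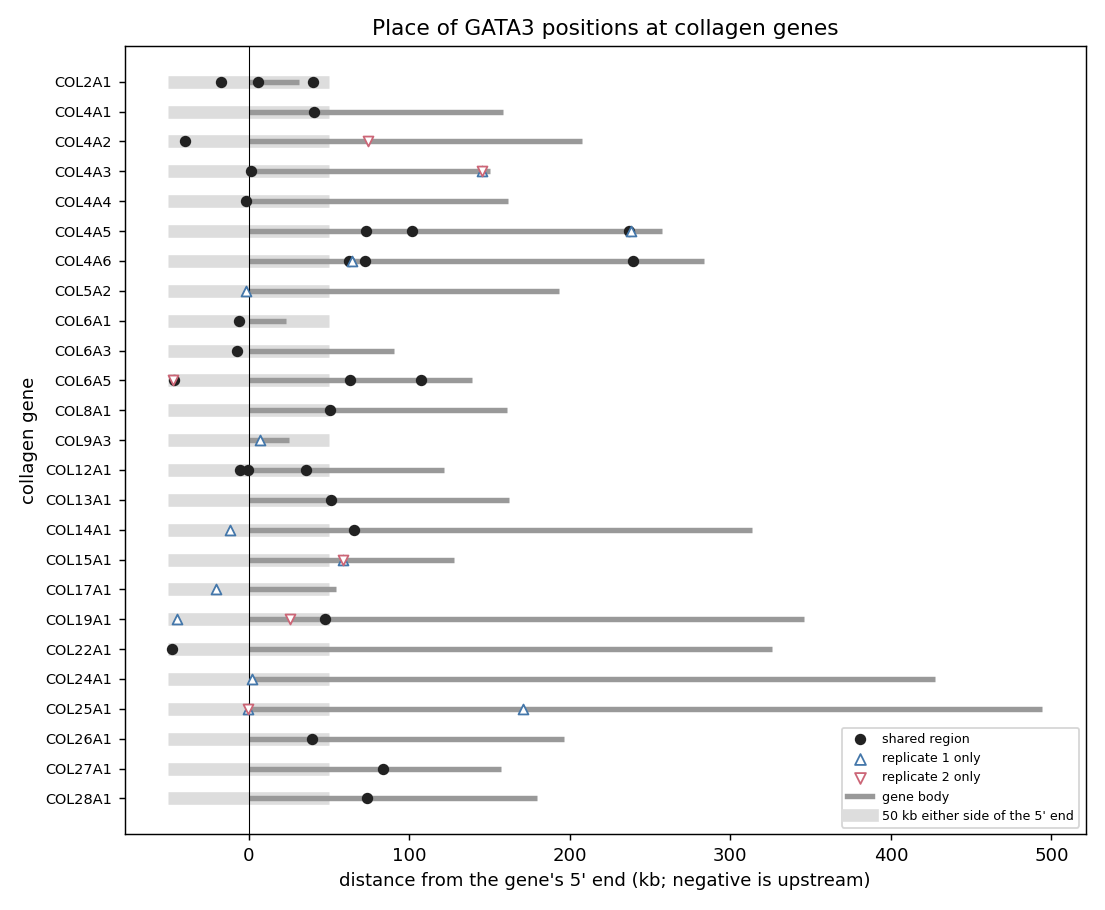
Place of GATA3 positions along the 25 collagen genes with a position in either replicate (y axis), as the distance from the 5′ end of the gene in kb (x axis, negative is upstream), with gene bodies in dark grey and the 50 kb on either side of the 5′ end in light grey. Of the 27 shared regions (black), 19 lie inside gene bodies, which the counting rule takes in whole. COL12A1 has one 0.237 kb from the 5′ end.

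In all, 19 of the 27 regions lay in a collagen gene body and 8 outside. By the canonical transcripts 18 were in introns, 1 was in an exon, that of COL14A1, and 8 were outside. The counting rule takes in whole gene bodies, so the number inside them depends on the rule and on gene length. In gene bodies only, 14 collagen genes had a region, beside 15.0 at the share of genes of like length. Within 10 kb of the 5′ end, 6 of the 44 members had a region (COL12A1, COL4A3, COL4A4, COL6A1, COL2A1 and COL6A3). Among protein-coding genes 8.69% did, a share not matched for gene length. COL4A3 and COL4A4 had the same region, and that of COL6A1 belongs to the group of like sequences described later. Within 50 kb, 12 members and 27.2% of protein-coding genes had one. At the share of genes of like length, 12.8 members would have had a region within 50 kb. The median distance from a collagen 5′ end to the nearest shared region was 65.2 kb, against 118 kb over protein-coding genes. The distances were not matched for gene length, and their difference was not tested.

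Recognition sequences were then counted in the 200 bases around each region. A GATA sequence was present in 24 of the 27 regions, 88.9% (71.9 to 96.1), and in 82.0% of all shared regions. The regions without one were the COL12A1 promoter region, the COL2A1 intron region and the region 72.7 kb inside COL4A6. There were 14 regions with 1, 8 with 2 and 2 with 3 GATA sequences, and 10 regions had at least 2, where 34.6% of all shared regions did. The GATA sequence was centred within 25 bp of the region centre in 11 of the 27 regions, against 52.8% of all. At unshared positions, a GATA sequence was within 100 bp of 6 of 6 in replicate 2 and of 5 of 12 in replicate 1. Over all positions of each replicate, shared or not, the shares were 77.5% in replicate 2 and 77.3% in replicate 1. These counts are small, and the difference between the replicates was not tested.

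Sequences of other factor families were searched on both strands. GTCTG, the core bound by SMAD proteins that carry the BMP signal, was in 15 of 27 regions, 55.6% (37.3 to 72.4), and in 36.1% of all shared regions. It was in the COL12A1 promoter and upstream regions and in the COL2A1 intron region. GGCGCC, a GC-rich form bound by SMAD1 and SMAD5, was in 1 region, that upstream of COL6A3, and in 1.96% of all. The SOX forms ACAAAGG or ACAATGG were in 6 regions, 22.2% (10.6 to 40.8), against 13.3%, and GGAATG of the TEAD factors was in 6, against 18.9%. The octamer ATGCAAAT of POU factors was in 1, in COL4A5 intron 2, against 5.10%. The AP-1 forms TGACTCA or TGAGTCA were in 0 of 27, for which the upper Wilson bound was 12.5%, against 5.64%. A match is a description of the letters and not a measured site of any factor.

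**Figure D5:**
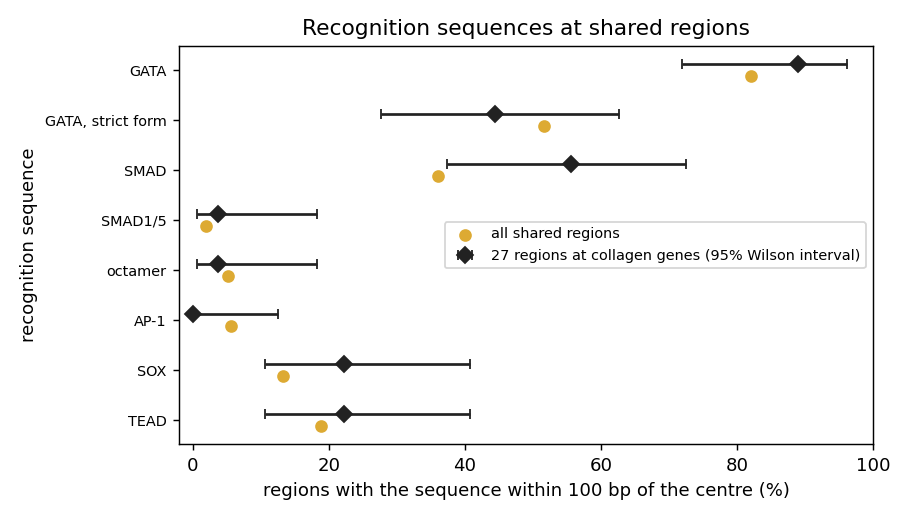
Share of regions (x axis, %) with each recognition sequence (y axis) in the 200 bases around the centre, for the 27 collagen regions (black diamonds with 95% Wilson intervals) and for all 9145 shared regions (yellow circles), with AGATAA as the strict form. A GATA sequence is in 88.9% against 82.0%, and the intervals hold the value over all regions except for the SMAD core, 55.6% against 36.1%, a difference that depends on a group of like sequences described in the text.

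Several of the 27 regions were alike in sequence. Compared with blastn, 5 regions in 3 genes were each alike to another of the 5, over at least 100 bases at 75% identity or more. They were those upstream of COL6A1, at all 3 places in COL6A5 and in COL4A5 intron 1. The blastn comparison was made after the sequences were seen. Not all of the 5 were alike to each other. Among them, the region 62.9 kb inside COL6A5 matched only that in COL4A5 intron 1, at 77.6% over 107 bases. Over the genome it was alike to 297 shared regions. The COL4A5 intron region and the region 107 kb inside COL6A5 were 96% identical over 175 bases, although they lie on different chromosomes.

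The likeness was not confined to collagen genes. Over the genome 401 shared regions, 4.38%, were alike to 1 of these 5, and 5 of the 27 collagen regions are 18.5%. The 5 were picked because they matched another collagen region, and the 401 because they matched the 5. These shares are thus not a like comparison. By the same limits of length and identity, without that choice, 8 of the 27 collagen regions, 29.6%, were alike to some other shared region. The share was 27.1% among all shared regions. The further 3 were at COL28A1, COL22A1 and COL4A6, with 75, 38 and 47 like regions. Reads that mapped to several places had been removed in the study, and the part this plays at repeated sequences was not tested.

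The like regions carried part of the letter counts. TGATAA made up 16 of the 36 GATA sequences at collagen regions, 44.4%, against 26.0% over all regions, and AGATAA made up 12, 33.3%, against 48.3%. Without the 5 regions TGATAA was 7 of 26, 26.9%, against 22.1% in all other shared regions outside the 401. GTCTG was in all 5 of them and in 96.3% of the 401. Without them it was in 10 of 22 collagen regions, 45.5%, against 33.3% outside the 401. A GATA sequence was in 19 of the 22, 86.4%. Without the 5 regions COL6A1 and COL6A5 no longer had a shared region, and 17 collagen genes did. With the 401 left out for all genes, genes of like length would give 19.5.

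The proximal promoters of the collagen genes were read from a RefSeq table on GRCh38.p14 that covers the bases just before each start and a few after it. The table held 44 promoters of 32 of the collagen genes, among them several for COL11A2, COL21A1 and COL10A1. A GATA sequence was in 8, 18.2%, against 24.97% of 35116 promoters. They belonged to COL4A6, COL10A1, COL17A1, COL19A1, COL21A1 and COL25A1. The COL12A1 promoter in the table had none, and it did not overlap the shared region 0.237 kb upstream.

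Genes whose products modify, process, bind or degrade collagen were counted by the same rule. Of 43 such genes, 16 had a shared region, 37.2%, and genes of their length would give 14.9. Among 16 genes for modification and folding the count was 6 against 5.18, with the lysyl hydroxylases PLOD1, PLOD2 and PLOD3, the prolyl hydroxylase genes P4HA1 and P3H2, and COLGALT2. P3H2 held 4 regions, the most of these genes. Among 13 genes for processing and cross-linking it was 6 against 5.03. LOXL1, a lysyl oxidase that cross-links collagen and elastin, had its region 1.98 kb upstream, and PCOLCE2, an enhancer of procollagen cleavage, had 2 regions with the nearest 3.87 kb upstream. ADAMTS3, ADAMTS14, LOXL3 and TLL1 were the others. Among 8 receptor genes DDR1, a collagen-binding kinase, had a region 7.02 kb upstream and ITGA10 had one, 2 against 2.97. Among 6 collagenase and gelatinase genes MMP2 and MMP8 had one, 2 against 1.72. The 38 genes for integrin and laminin chains gave 16 with a region, 42.1%, against 14.3 at the share for like length. Each of these lists lay near the count given by genes of like length, and no difference between lists was tested.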

How the data were processed

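GATA3 ChIP-seq was carried out on H1 hESC in 2 replicates, each with its own input. Per the submitters' processing notes and the study's methods, the authors used cutadapt for adapter removal, Bowtie for alignment to the hg38 build and Picard against duplicate reads, excluded reads with several locations and blacklisted regions, and called peaks against input with MACS2 at q 0.05, separately in each replicate. Tool versions are not given in the sources used here. The deposited files hold 1 base position per peak, as chromosome, start and an equal end, and a gene name. The numbers of distinct positions in them differ from the numbers of peaks that the paper reports, and the reason is not known. No score, p-value or read count is in them, so depth is unknown from these files, and no stricter peak threshold could be tried. Whether a position is the summit or the midpoint of its peak was not stated, nor whether bases are counted from 0 or 1. Positions are printed as deposited, and sequence windows take them as counted from 1. Of the positions, 1.56% and 2.12% fell between 2 bases. Positions on scaffolds, 82 and 83, were left out, and 0 were named for a collagen gene. The number of sample columns not used was 0. Input chromatin was used only through the authors' peak calls.

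Positions were compared with GENCODE release 44 genes in Python 3.11.15 with numpy 2.4.6, pandas 2.3.3, scipy 1.17.1 and pysam 0.24.0, figures were drawn with matplotlib 3.10.9, and alike regions were found with blastn 2.17.0 (E value at most 1e-10). The count by position was used as the main count, because the authors' symbols do not all match this annotation, and the count with symbols is given beside it. Genes were placed in 10 length classes of equal size. Sequences come from hg38, and some are not reported here. No test of significance was run, since genes are not replicates and no other condition was at hand. Intervals are at 95% and cover counting error only. The scripts were tested on simulated data, and of 12000 simulated positions 60.8% were planted as shared and 60.8% recovered. Planted pairs lay well within the 100 bp limit and all others far outside it. The simulation thus checked the code only and did not cover pairs near the limit. The members and lists were chosen with earlier results of these data known. All 44 genes are accounted for. The nearest region is described for genes with one within 10 kb and for the 5 genes with most regions, and other regions named follow from the account of each gene. The alternatives were the sharing distance, the gene window, the start used, the length classes, the motif window, and each replicate alone.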

Additional observations from a re-analysis of the deposited data

How the results depend on the processing

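The count of 19 collagen genes was within 1.5 times under all alternatives but 1, the window of 50 kb around the 5′ end only, which gave 12 (12.8 at the share of genes of like length). Leaving out a replicate gave 21 to 25. Other counts, each beside the number at genes of like length, were 19 and 17.6 at 50 bp, 21 and 21.1 at 250 bp, 21 and 21.3 at 500 bp, 19 and 19.7 with canonical starts, 21 and 20.4 by position or symbol, 17 and 16.3 with 10 kb, 28 and 24.8 with 100 kb, 14 and 15.0 in gene bodies only, and 13 and 7.59 by symbol alone, so the collagen count lay above the comparison under 5 of these settings and below it under the others. The cause was not tested. The comparison share of 45.5% moved with the rule, to 40.0% at 50 bp, 48.0% at 250 bp, 48.5% at 500 bp, 37.0% with 10 kb, 56.3% with 100 kb, 34.0% in gene bodies only, 29.0% around the 5′ end only, 44.8% with canonical starts, 46.3% with symbols and 32.3% without length classes, and to between 54.1% and 63.8% with 1 replicate left out. The share of replicate 2 positions found again rose to 93.9% at 500 bp. A GATA sequence was in 70.4% of regions in 100 bases (71.2% of all shared regions), AGATAA alone was in 44.4% (51.6%), and with 1 replicate left out the share was 74.4% for replicate 1 positions (77.3% of all) to 93.9% for replicate 2 positions (77.5%). The collagen share thus lay below that over all regions in 3 of these settings, against 88.9% and 82.0% in the report. Counts by class under each alternative, comparison shares with canonical starts and with symbols, the count of loci and the values without like sequences were chosen after seeing the data. No paired analysis was possible because the study has 1 ChIP group and no contrast between groups. Called positions without scores limit the results to presence or absence of a peak, and binding below the peak threshold cannot be seen.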
